A study of Mus musculus with 20 samples.

Results

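The amyloid precursor protein family and its secretases were followed through 3 kinds of measurement in NSC-34 cells: binding by the RNA-binding protein HuD, the choice of mRNA 3′ ends, and the amounts of polysomal and total RNA. The 9 genes were taken by symbol, *App*, *Aplp1*, *Aplp2*, *Bace1*, *Adam10*, *Psen2*, *Psenen*, *Ncstn* and *Aph1a*, and all 9 were present both among 14924 genes with RNA-Seq counts and among 9621 genes with 3′ end counts. Binding windows were listed for 1 of them, *App*.

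NSC-34 is a mouse motor neuron-like hybrid line, here carrying the tetracycline repressor (Trex cells), and the HuD cells also carried a lentiviral, tetracycline-inducible, His-HA tagged human HuD (gene symbol *Elavl4*) under a CMV promoter. For CRAC, in which RNA crosslinked to the tagged protein is purified over 2 affinity steps and sequenced, the labels give 10 μg/ml tetracycline for 24 h for both the HuD and the control Trex cells, with 3 libraries each that the authors pooled. The paper's methods give the same dose and time for CRAC, but its results text names 2 μg/ml doxycycline and 48 h. For RNA-Seq (total RNA of the cytoplasmic gradient), POL-Seq (polysomal RNA) and 3′ end mRNA-Seq, the labels give 2 μg/ml for 48 h for HuD cells and name no treatment for control cells, with 2, 2 and 3 libraries per condition. The paper's methods name doxycycline as the inducer at this dose. Unless control cells had the same drug, effects of HuD and of the drug cannot be told apart in comparisons of these libraries. The study's methods call the replicates biological, but neither they nor the labels say whether they are separate cultures, so p-values measure the spread between these samples, which may be technical.

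The precursor proteins App, Aplp1 and Aplp2 are membrane proteins that are cut first outside the membrane and then within it. The β-secretase Bace1 or the α-secretase Adam10 makes the first cut, and γ-secretase makes the second. γ-Secretase is a complex of a presenilin such as Psen2, which carries the active site, with Psenen (Pen-2), Ncstn (nicastrin) and Aph1a. After cutting by Bace1 and γ-secretase, App gives the amyloid-β peptide, while Adam10 cuts within that peptide. HuD and the other ELAV proteins bind U-rich stretches, mostly in the 3′ UTR, and are known for stabilising neuronal mRNAs and raising their translation.

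In GRCm38, as annotated by Gencode M21, the substrate genes lie at chr16:84949685-85173766 (*App*), chr7:30434982-30445535 (*Aplp1*) and chr9:31149557-31211815 (*Aplp2*), all on the minus strand. *Bace1* lies at chr9:45838580-45864399 and *Adam10* at chr9:70678997-70780229, both on the plus strand. The γ-secretase genes lie at chr1:180227004-180263438 (*Psen2*), chr7:30561863-30563627 (*Psenen*) and chr1:172066013-172082795 (*Ncstn*) on the minus strand and chr3:95893969-95898288 (*Aph1a*) on the plus strand.

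Total counts per library ranged from 21296012 to 36284728 in RNA-Seq and POL-Seq and from 10154595 to 12295316 in 3′ end mRNA-Seq. Mouse *Elavl4*, the counterpart of the induced human gene, had 78.3 and 97.4 CPM (read counts scaled to library size) in total RNA of control cells and 237 and 212 in HuD cells, a log2 difference of 1.35 (SE 0.15, edgeR adjusted p = 0.0866). In polysomal RNA it had 90.3 and 118 CPM in control and 243 and 225 in HuD cells, a log2 difference of 1.17 (SE 0.15, edgeR adjusted p = 0.282). Reads were aligned to the mouse genome. The *Elavl4* counts thus hold the mouse gene and any human reads that align to it, and do not measure the size of the induction. Of 9 neuronal markers, 8 were in the count table, with a summed 1315 to 1518 CPM per library. The highest were *Tubb3* (560 to 673 CPM) and *Gap43* (321 to 418 CPM). Of the motor neuron markers, the enzyme gene *Chat* reached at most 0.608 CPM, *Slc18a3* 9.06 and *Isl1* 47.3, and *Mnx1* was not in the table. The summed level of 2 of 3 oligodendrocyte markers was 13.8 to 18.4 CPM and that of 1 of 3 astrocyte markers 0.329 to 0.634 CPM. The summed neuronal markers in total RNA were 1358 to 1447 CPM in control and 1315 to 1332 CPM in HuD cells, without overlap, as for 31.9% of all tested genes. In polysomal RNA the sums overlapped, at 1456 to 1518 CPM in control and 1438 to 1496 CPM in HuD cells. The part of marker levels in the values of the 9 genes was not tested.

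CRAC placed HuD on *App* at 2 windows of the 3′ UTR, both past its midpoint. The windows are shown with 11 bases on each side, 5′ to 3′ and with the listed window in capitals, together with a further copy of the first window's letters in the same UTR for which no window was listed (GRCm38, minus strand, sequence from Gencode M21 transcript App-201).
App window chr16:84954670-84954676: gagaauuugaaCAUUUUUuuuguccaugu
App window chr16:84954800-84954807: acuuagaaaauUCUUUUUCcaugacugcau
App, no window, chr16:84954835-84954841: ugcauuuugaaCAUUUUUuuaaguauucc

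The window CAUUUUU began 655 bases after the stop codon of *App*, in a 3′ UTR of 888 bases. It was covered by 37 pooled HuD reads, of which 16 carried a deletion, the mark left by crosslinking (43.2%, 95% Wilson interval 28.7 to 59.1). The authors' combined p-value for this window was 0.0282 and its score against their positional weight matrix 0.91. The window UCUUUUUC began 524 bases after the stop codon and had 10 reads with 3 deletions (30%, 95% Wilson interval 10.8 to 60.3), a p-value of 0.368 and a score of 1.00. Control cells had 0 reads and 0 deletions at both, and of 2598 unique windows in protein-coding genes 96 (3.7%) had any control reads. Locations with control reads had been penalised before listing, so that 0 is the usual state of a listed window. The 3 deletions of the window at 524 bases are the lowest number listed. The intervals cover counting error only, and the pooled values have no replicate error. The unlisted CAUUUUU began 490 bases after the stop codon, so that the same letters stood in the UTR at a window and away from any.

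**Figure D1:**
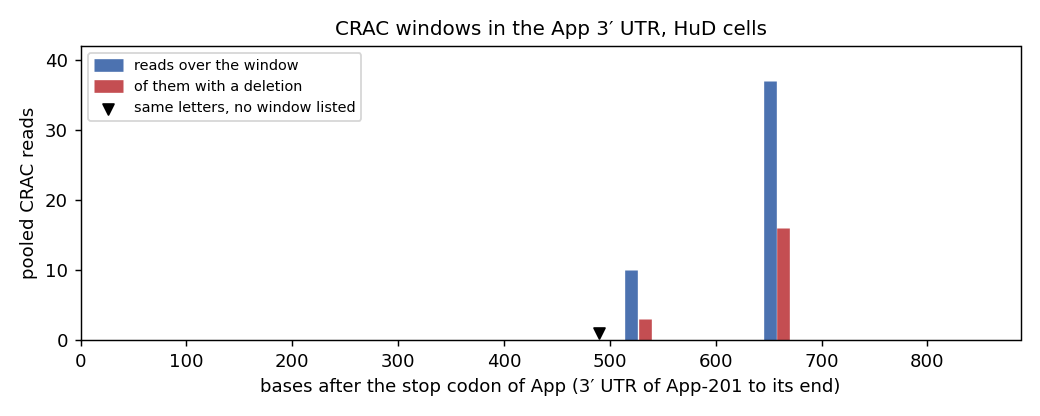
The plot gives pooled HuD CRAC reads (vertical axis) over the *App* 3′ UTR in bases after the stop codon (horizontal axis), with reads over each listed window in blue, reads with a deletion in red beside them, and the unlisted copy of the motif as a triangle. The window 655 bases after the stop codon had 37 reads and 16 deletions and the one at 524 had 10 and 3.

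Among 1304 protein-coding genes with windows, 458 (35.1%) had a window with more reads than the 37 of *App*, against a median over genes of 22. By deletions 129 (9.89%) were ahead of *App* with its 16, where the median was 5, and by the authors' p-value 192 genes (14.7%) had a lower one. A p-value under 0.05 was listed for at least 1 window in 22.5% of these genes and 2 or more windows in 39.1%. The letters CAUUUUU made up 39 of 2598 unique windows (1.5%), and UCUUUUUC 3 (0.115%).

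The count of 1 of 9 members with a window compared with 8.95% of all 14924 counted genes. Among 5664 genes whose mean total RNA in HuD cells lay within the members' range of 34.8 to 205 CPM, 14.3% were listed. The table starts at 6 reads and 3 deletions per window and keeps only high-scoring letters, so that fewer reads on the other 8 members, or reads on other letters, would not be seen in it.

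The letters of the *App* windows also occurred in 3′ UTRs without a window. For each gene the longest 3′ UTR among its protein-coding transcripts in the 3′ end table was searched on the sense strand. CAUUUUU occurred 2 times in *App*, 2 times in *Aph1a*, 3 times in *Adam10* and 1 time in *Bace1*, and UCUUUUUC 1 time each in *App* and *Aph1a*. The 3′ UTRs of *Aplp1*, *Aplp2*, *Psen2*, *Psenen* and *Ncstn* held neither. Of 8886 genes with such a 3′ UTR, 24.2% held CAUUUUU and 8.10% UCUUUUUC, and both motifs contain UUUUU, which 73.9% held. In *Aph1a*, UCUUUUUC began 583 and CAUUUUU 608 bases after the stop codon, and no window was listed there. These matches are shown as the closest sequence parallel to the *App* windows, with the matched letters in capitals (plus strand, GRCm38).
Aph1a, no window, chr3:95896954-95896961: ggacaucuuggUCUUUUUCucaggucugaa
Aph1a, no window, chr3:95896979-95896985: cugaaaggaacCAUUUUUugguaugauaa

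By UUUUU per kilobase, overlapping matches counted, *Ncstn* with 22.7 and *Adam10* with 20.1 were the densest members and *App* had 9.01, while the short 3′ UTRs of *Aplp1* (311 bases) and *Psenen* (130 bases) held 0. The median over genes was 3.6. The member with windows was therefore not the one with the densest U runs.

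Of 39 further genes of the pathway, 6 had windows (15.4%). The share was 8.95% of all 14924 counted genes and 14.3% of genes within the members' range of total RNA in HuD cells. The 6 were *Rer1* and *Furin* (proteases and partners), *Tspan15* (Adam10-carrying tetraspanins), *Apbb2* (App adaptors), and *Rtn3* and *Picalm* (trafficking). None of 5 clearance genes had one, a group too small to compare with these shares. Among the 6, *Rtn3*, a reticulon that binds Bace1, was the only one with a p-value under 0.05, at a window of 29 reads and 14 deletions that matched the stronger *App* window in its first 6 letters. The window of most reads in this list, 61 reads with 5 deletions, was in *Rer1*, which encodes a Golgi retrieval receptor of γ-secretase subunits, and 38 reads with 5 deletions fell on *Picalm*, a clathrin adaptor. They are shown with the window in capitals to compare with those of *App* (GRCm38, plus strand for *Picalm* and minus strand for the others).
Rtn3 window chr19:7426270-7426276: uugccccuguaCAUUUUGaaucuuucauu
Rer1 window chr4:155074418-155074424: cuaccaugauuGCUUUUGagggccuggaa
Picalm window chr7:90208089-90208095: aauuuauauucAGUUUGCaguagacauuc

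Before the comparisons, the members were ordered by their level in total RNA of control cells, as CPM per kilobase of transcript (RPKM). *Aplp1* was highest at 77.3 ± 1.94 RPKM (SD, n = 2). Then came *App* at 65.3 ± 9.94, *Psenen* at 64.7 ± 0.574 and *Aplp2* at 53.0 ± 6.27 (SD, n = 2), and of these only *App* and *Psenen* overlapped between libraries. *Ncstn* followed at 42.1 ± 1.31, then *Aph1a* at 23.8 ± 0.0611 and *Adam10* at 22.4 ± 1.92, *Psen2* at 16.2 ± 1.54 and *Bace1* at 8.79 ± 0.208 RPKM (SD, n = 2). By this measure *Bace1* mRNA was the least abundant of the 9 and its substrates were among the most abundant. Lengths were those of the transcripts with the searched 3′ UTRs, and with all annotated exons merged, *App*, whose merged exons span 12996 bases against 3176 in App-201, moved from rank 2 to rank 7, and *Psen2* in place of *Bace1* was lowest.

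The total RNA of no member differed between HuD and control cells past the threshold. None of 9 passed edgeR's adjusted p of 0.05, as 0% of 14906 tested genes did, none passed it with DESeq2, and none passed an unadjusted p of 0.05, which 2.64% did. In bulk RNA, fewer cells that express a gene and less of its RNA per cell cannot be told apart. *App* had 185 and 229.7 CPM in control and 212 and 198 in HuD cells. The control libraries enclosed the HuD libraries, and the log2 difference was -0.02 (95% interval -0.33 to 0.29). *Aplp1* had 184 and 178 CPM in control and 189 and 166 in HuD cells, and *Aplp2* 176 and 209 in control and 197 and 179 in HuD cells. Neither relative of *App* separated the conditions.

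*Bace1* had 54.1 and 52.4 CPM in control and 56.2 and 52.0 in HuD cells, and the interval of its log2 difference, -0.16 to 0.20, was the narrowest among the 9. *Adam10* had 96.6 and 109 CPM in control and 105 and 93.8 in HuD cells. Both secretases that make the first cut thus overlapped between conditions.

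For *Aph1a*, the scaffold subunit of γ-secretase, total RNA was 68.2 and 68.4 CPM in control and 59.3 and 62.7 in HuD cells, without overlap. The log2 difference was -0.16 (SE 0.10, edgeR adjusted p = 1.00). *Psenen*, the smallest subunit, had 46.1 and 45.5 CPM in control and 44.2 and 44.2 in HuD cells, also without overlap, with a log2 difference of -0.05 (SE 0.11). These were the 2 members of 9 whose groups did not overlap in total RNA, a state found in 31.9% of all tested genes. *Ncstn* had 119 and 125 CPM in control and 122 and 120.3 in HuD cells, and *Psen2* 34.5 and 30.1 in control and 35.4 and 34.1 in HuD cells.

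In polysomal RNA the largest difference was in *Psen2*, the catalytic subunit. It had 33.8 and 26.8 CPM (1111 and 557 counts) in control and 41.3 and 36.5 CPM (1535 and 1169 counts) in HuD cells. Both HuD libraries lay above both control libraries, with a log2 difference of 0.36 (SE 0.13, 95% interval 0.07 to 0.64), or 1.28-fold. The edgeR p was 0.0191 unadjusted and 0.969 adjusted, and *Psen2* was the 1 member of 9 past an unadjusted p of 0.05, which 4.17% of all genes passed. None of the 9, like 0% of all genes, passed the adjusted threshold of edgeR, and none that of DESeq2.

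The difference in *Psen2* rested partly on single libraries. Without POL control replicate 2, the shallowest library, it was 0.21, and without POL control replicate 1 it was 0.54 (edgeR adjusted p = 0.0517). Without POL HuD replicate 1 it was 0.27 and without POL HuD replicate 2 0.44. In total RNA the log2 difference of *Psen2* was 0.11 (SE 0.13), and in 3′ end counts 0.17 (SE 0.18).

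*Ncstn*, the subunit that receives the substrate, had 115 and 132 CPM of polysomal RNA in control and 113 and 111 in HuD cells, without overlap and with a log2 difference of -0.14 (SE 0.09). It was -0.24 without POL control replicate 1 and -0.035 without POL control replicate 2. *Psen2* and *Ncstn* made 2 of 9 members without overlap, in opposite directions, compared with 28.7% of all genes. The remaining γ-secretase subunits overlapped, with *Psenen* at 47.6 and 36.7 CPM in control and 42.8 and 42.8 in HuD cells and *Aph1a* at 63.6 and 52.6 in control and 57.7 and 60.2 in HuD cells. The γ-secretase subunits thus had differences of both signs, none past the adjusted threshold.

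Polysomal *App* mRNA stood at 208 and 257 CPM in control and 248 and 214 in HuD cells, a log2 difference of -0.01 (95% interval -0.32 to 0.30). *Aplp1* had 194 and 188 CPM in control and 209.8 and 184 in HuD cells, and *Aplp2* 207 and 257 in control and 227 and 204 in HuD cells. *Bace1* had 56.1 and 57.3 CPM in control and 58.7 and 54.8 in HuD cells, and *Adam10* 111 and 134 in control and 129 and 121 in HuD cells. All of these overlapped between conditions.

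**Figure D2:**
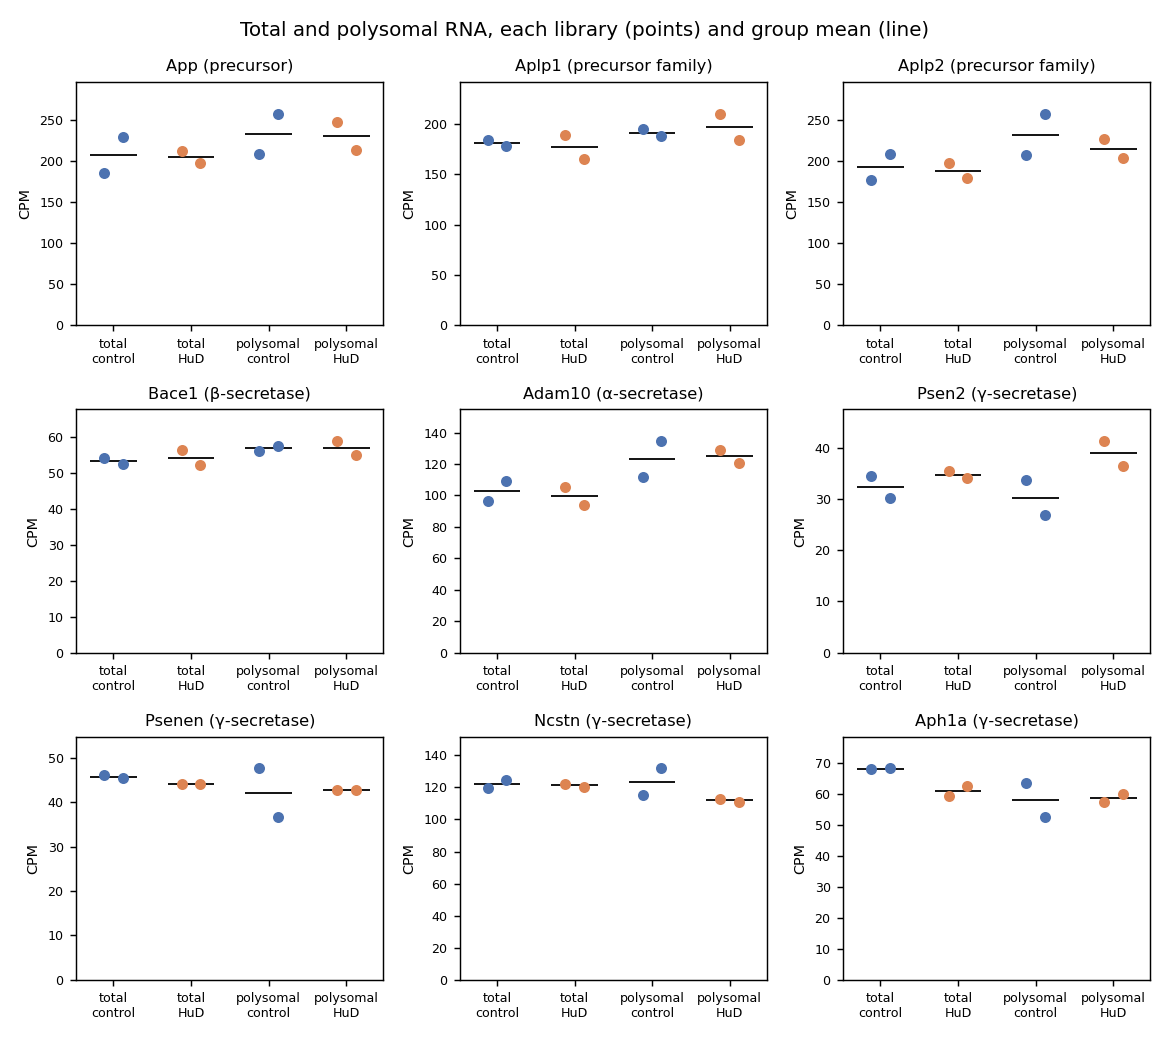
Each panel gives one gene's CPM (vertical axis, from 0) in total and polysomal RNA of control (blue) and HuD cells (orange), with a point per library and a line at the mean of 2. *Psen2* is higher in both polysomal HuD libraries (41.3 and 36.5) than in both controls (33.8 and 26.8), and *App* overlaps between conditions in both fractions.

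Translation efficiency (TE), the ratio of polysomal to total RNA, was compared between HuD and control cells by an interaction term. Libraries were normalised to each other, so TE here is relative to other mRNAs, and a rise shared by all mRNAs would not show. The paper reports a rise in global TE with HuD overexpression, measured by absorbance along the gradient. For *App*, the bound mRNA, the ratio of same-numbered libraries was 1.13 and 1.12 in control and 1.17 and 1.08 in HuD cells. The HuD ratios enclosed the control ratios, and the log2 change in TE was 0.0078 (SE 0.19, 95% interval -0.43 to 0.44). For *Psen2*, which had no window, the ratio was 0.979 and 0.889 in control and 1.17 and 1.07 in HuD cells, a log2 change of 0.25 (SE 0.18, interval -0.15 to 0.65).

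*Aph1a* had ratios of 0.933 and 0.769 in control and 0.971 and 0.961 in HuD cells (log2 change 0.18, SE 0.14), and *Ncstn* 0.964 and 1.06 in control and 0.921 and 0.924 in HuD cells (log2 change -0.13, SE 0.12). These changes moved with the polysomal control libraries. Without POL control replicate 1 they were 0.43 for *Psen2*, 0.33 for *Aph1a* and -0.23 for *Ncstn*, and without POL control replicate 2 they were 0.10, 0.056 and -0.028, none past the adjusted threshold of edgeR. For the other members the log2 change in TE lay between -0.07 for *Aplp2* and 0.07 for *Adam10*. None of 9 passed an adjusted p of 0.05 in edgeR, as 0% of all genes did, or in DESeq2, and none an unadjusted p of 0.05, which 0.979% did. The median over the 9 was 0.07, with 6 above 0, and over all genes -0.0062.

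In control cells, polysomal and total RNA were compared to show where each mRNA stood, relative to other mRNAs, before induction. Libraries were normalised to each other, so a value of 0 lies near the median gene (0.0090) and does not mean equal amounts. The log2 difference, polysomal minus total, was 0.26 for the α-secretase *Adam10* (SE 0.11) and 0.27 for *Aplp2* (SE 0.13), and *App* stood at 0.17 (SE 0.14). *Aph1a* lay on the other side of 0, with 63.6 and 52.6 CPM in polysomal and 68.2 and 68.4 in total RNA, a log2 difference of -0.23 (SE 0.10). None of the 9 passed the adjusted edgeR threshold, which 0.174% of all genes passed, or that of DESeq2, and *Aph1a* was the 1 member past the unadjusted threshold that 10.7% passed (edgeR adjusted p = 0.464). The fractions did not overlap for 4 of 9 members, *Aplp1*, *Bace1* and *Adam10* higher and *Aph1a* lower in polysomes, compared with 39% of all genes.

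These values depended on single libraries. Without POL control replicate 1, the log2 differences were 0.42 for *Aplp2* and 0.39 for *Adam10*, both higher in polysomes. They were -0.32 for *Psenen* and -0.38 for *Aph1a*, both lower. The lone POL control library is there assumed to vary like the other groups. Without POL control replicate 2 the log2 differences were 0.11 for *Adam10*, 0.097 for *Aplp2*, -0.11 for *Aph1a* and 0.00039 for *App*. Without TOT control replicate 1 they were 0.17 for *Adam10*, 0.15 for *Aplp2* and 0.019 for *App*. In the 2 polysomal control libraries *Aplp2* had 207 and 257 CPM and *Adam10* 111 and 134 CPM.

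**Figure D3:**
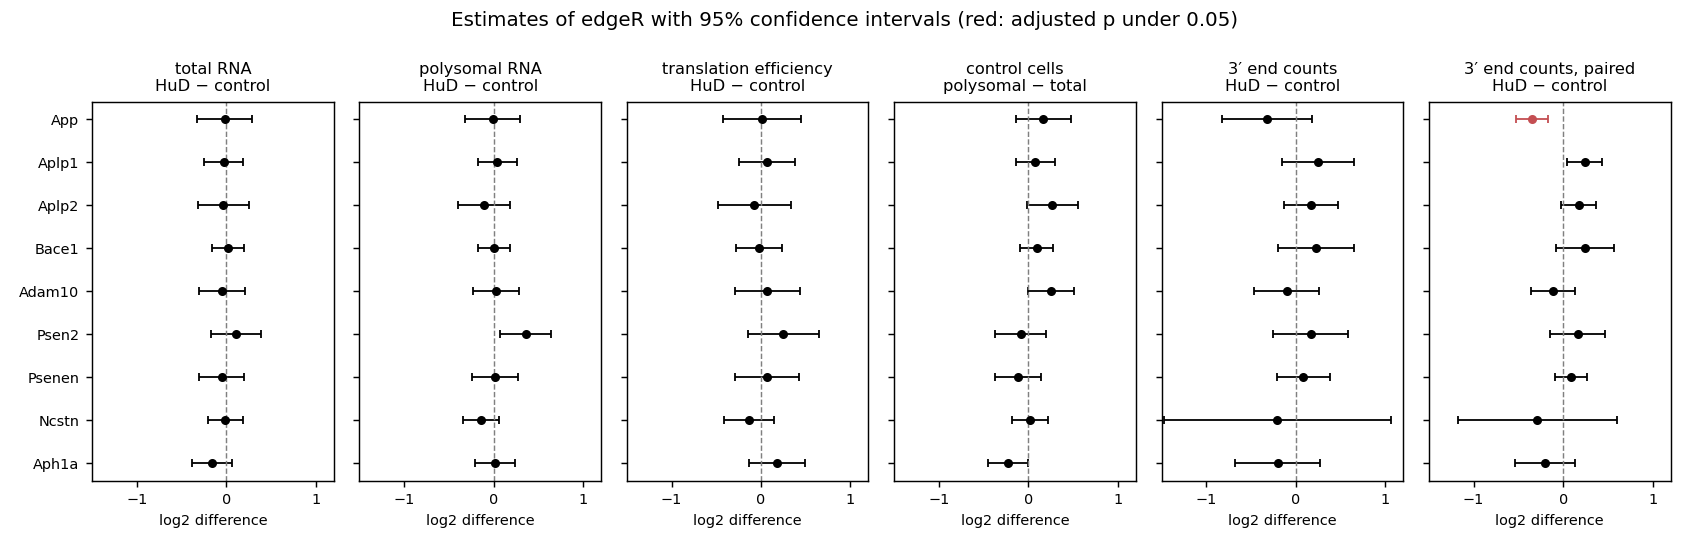
Points give the log2 difference of each member (horizontal axis) in 6 comparisons, with 95% confidence intervals from edgeR, and red marks an adjusted p under 0.05. *App* in 3′ end counts with same-numbered libraries paired is the 1 red point, at -0.35, and most intervals include 0.

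In the 3′ end libraries, made from Trizol-extracted RNA and not from the gradient, *App* was the member with the most counts. It had 3311, 3470 and 2701 counts in control and 2199, 3246 and 1822 in HuD libraries, or 268, 324 and 219 CPM against 209, 286 and 155. The groups overlapped, but each HuD library lay below the control library of the same number, at 0.780, 0.882 and 0.707 of it. The log2 difference was -0.32 (SE 0.22, edgeR adjusted p = 0.951), and leaving out single libraries gave -0.13 (without 3′ end HuD replicate 3) to -0.57 (without 3′ end HuD replicate 2), none past the threshold.

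Same-numbered 3′ end libraries deviated together, and a further fit took each number as a pair. With this replicate block *App* fell by 0.35 on the log2 scale (SE 0.08, 95% interval -0.52 to -0.17, edgeR adjusted p = 0.0467), a level of 0.787-fold. It was the 1 member of 9 past the threshold, which 2.57% of 9621 genes passed with the block and 0.0416% without it, where no member did in edgeR or DESeq2. The call was lost when pair 1 was left out (-0.33, adjusted p = 0.199), when pair 3 was left out (-0.27, adjusted p = 0.182) and with unmerged ends (-0.34, adjusted p = 0.0578). Mouse *Elavl4* also had fewer 3′ end counts in HuD cells, with a log2 difference of -0.46 (edgeR adjusted p = 0.0275) in the same fit, and these ends need not report the human transgene.

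The relatives of *App* stood on the other side of 0. *Aplp1* had 49.3, 63.1 and 47.0 CPM in control and 58.6, 77.2 and 53.5 in HuD libraries, each HuD library being above its same-numbered control, by 1.19, 1.22 and 1.14-fold. The log2 difference with the block was 0.24 (SE 0.09, edgeR adjusted p = 0.171). *Aplp2* had 56.9, 63.7 and 52.5 CPM in control and 61.5, 70.0 and 63.4 in HuD libraries. It was also higher in 3 of 3 numbers, with a log2 difference of 0.17 (SE 0.09, edgeR adjusted p = 0.329) under the block. Neither relative passed the threshold, and the share of all genes moving one way in 3 of 3 numbers was not counted. Unadjusted, 2 of 9 members, *App* and *Aplp1*, passed 0.05 with the block, as did 18.7% of all genes, and 0 of 9 passed without it, as did 5.86%.

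*Bace1* had 16.8, 14 and 11 CPM in control and 15.5, 17.4 and 16.1 in HuD libraries, and *Adam10* 38.8, 35.7 and 34.4 in control and 35.0, 38.9 and 27.5 in HuD libraries. *Psen2* had 11.5, 9.99 and 9.98 CPM in control and 13.5, 9.94 and 11.9 in HuD libraries, *Psenen* 99.1, 123 and 118 against 112, 123 and 126, and *Aph1a* 10.4, 11.3 and 8.44 against 10.6, 8.36 and 7.31. For no member did the groups fail to overlap, as they did for 11.9% of all genes. *Ncstn* had only 39, 19 and 23 counts in control and 22, 39 and 5 in HuD libraries, and its interval, a log2 difference of -1.47 to 1.06, took in both a fall and a rise.

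**Figure D4:**
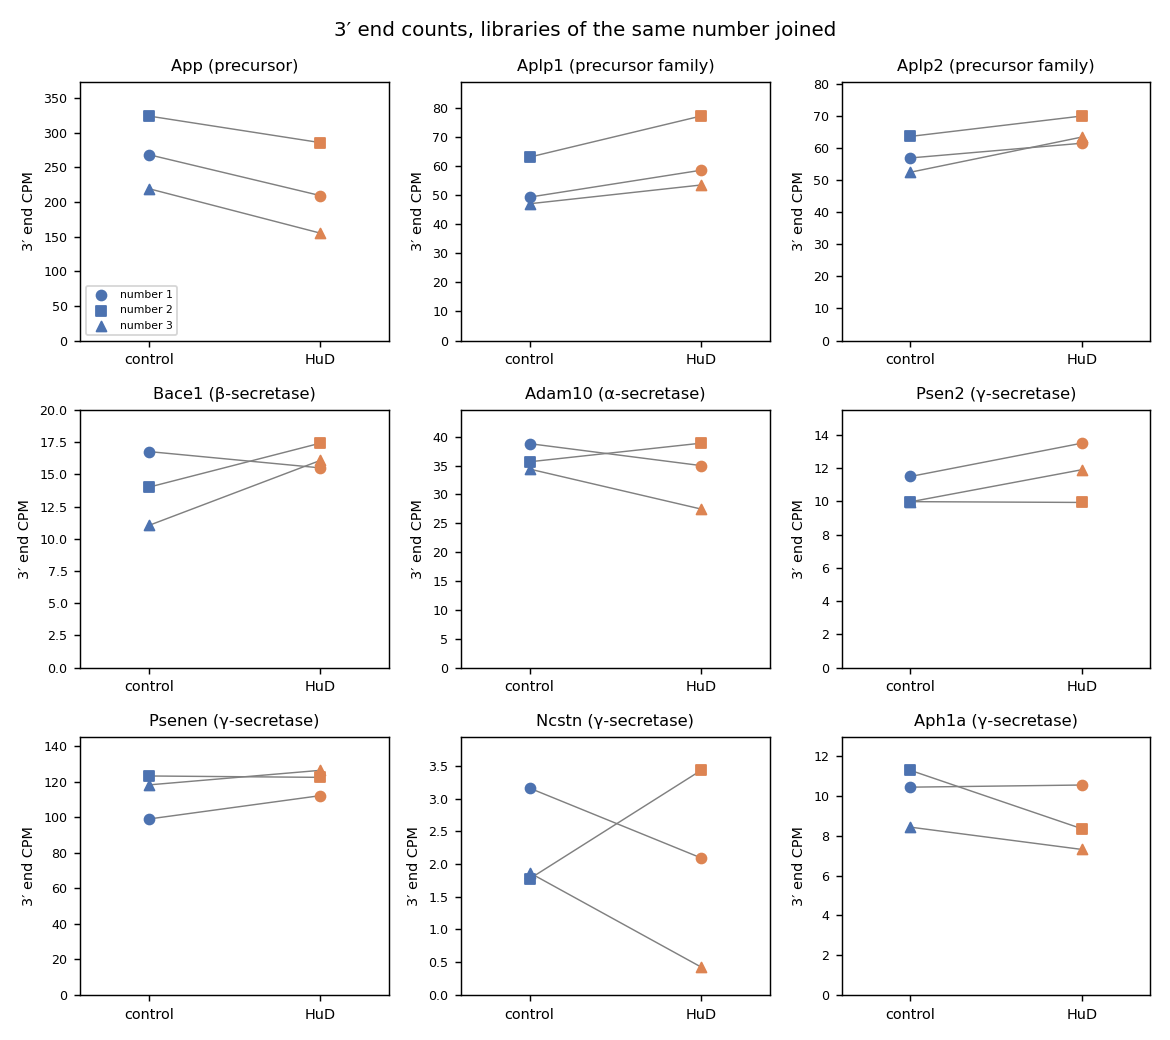
Each panel gives one gene's 3′ end CPM (vertical axis, from 0) in 3 control (blue) and 3 HuD libraries (orange), with libraries of the same number joined by a line. All 3 lines point down for *App*, from 268 to 209, 324 to 286 and 219 to 155, and all 3 point up for *Aplp1* and *Aplp2*, while those of the secretase genes cross or differ in direction.

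The members differed widely in how many 3′ end counts they had for their total RNA. Relative to its RPKM in total RNA of control cells, the 3′ end CPM of *App* was 4.14, that of *Psenen* 1.76, of *Adam10* 1.62, of *Bace1* 1.58, of *Aplp2* 1.09, of *Aplp1* 0.688, of *Psen2* 0.648, of *Aph1a* 0.422 and of *Ncstn* 0.0538. The last 30 bases before the listed ends of *App* and *Ncstn*, the extremes of this order, are shown with the polyadenylation signal in capitals. The signal AAUAAA was found within 40 bases of the listed ends of *App*, *Aplp2*, *Adam10*, *Psenen* and the distal end of *Psen2*, its variant AUUAAA in *Ncstn*, and neither at *Aph1a* or at either end of *Bace1*, while the end of *Aplp1* was not placed in a transcript.
App end, chr16:84954440, minus strand: auaAAUAAAuuaAAUAAAauaacuccaggc
Ncstn end, chr1:172066013, minus strand: uuucAUUAAAauuaugcaauacaauuugua

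After ends within 20 bases were merged, only *Bace1* and *Psen2* had 2 ends. *Bace1* had 173, 125 and 109 counts in control and 134, 171 and 165 in HuD libraries at the proximal end, and 34, 25 and 27 in control and 29, 27 and 24 in HuD libraries at the distal end, the end of its 4104-base 3′ UTR. The distal share was 17.6% ± 1.91 (SD, n = 3) in control and 14.7% ± 2.71 (SD, n = 3) in HuD libraries, which overlapped (exact permutation test, two-sided p = 0.3, smallest possible 0.1). *Psen2* had 79, 63 and 70 counts in control and 74, 61 and 91 in HuD libraries at the distal end and 63, 44 and 53 in control and 68, 52 and 49 in HuD libraries at the proximal end. Its distal share was 57.1% ± 1.63 (SD, n = 3) in control and 57.0% ± 6.96 (SD, n = 3) in HuD libraries (exact permutation test, two-sided p = 1).

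Neither gene passed the edgeR test of 3′ end choice, at an adjusted or an unadjusted p of 0.05, which 0% and 0.558% of 1434 genes with 2 or more ends passed. The proximal end of each lay beside a run of A in the transcript itself. After the proximal *Bace1* end, which is listed for a form with a retained intron, 19 of the next 20 bases were A, and after the proximal *Psen2* end 11 of 20. Of 3360 listed ends that lie inside another transcript of their gene, 15.7% were followed by 10 or more A and 1.70% by 19 or more, with a median of 4. The 3′ end method primes on A runs, and the part of these runs in the counts was not tested. The 30 bases up to both proximal ends are shown, in lower case throughout since no signal was found.
Bace1 proximal end, chr9:45862219, plus strand: acuggcuuuuuccccauuucuuuacagggc
Psen2 proximal end, chr1:180227443, minus strand: uccuuacaaaagaagaagaagaaaaaaaaa

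**Figure D5:**
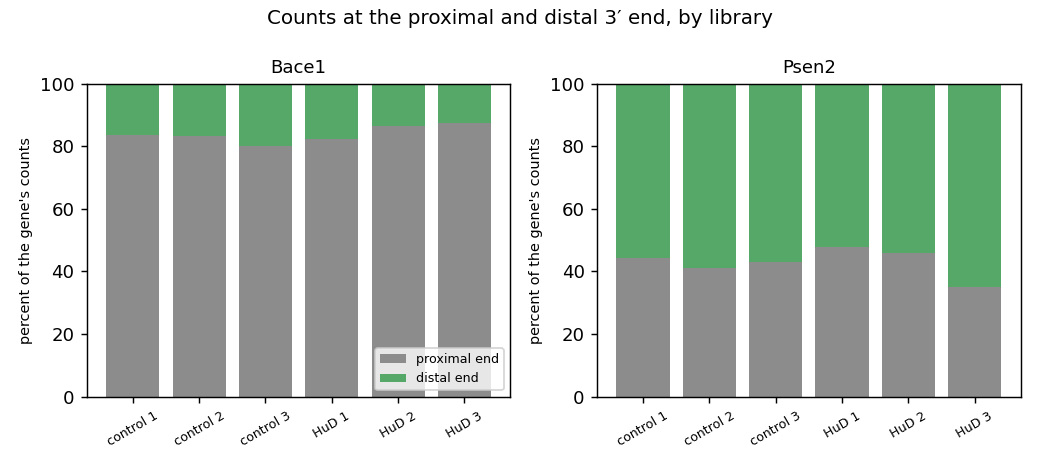
Bars give, for each of 6 libraries, the percent of a gene's 3′ end counts (vertical axis) at the proximal (grey) and distal end (green). The distal end of *Bace1* takes 16.4% to 19.9% in control and 12.7% to 17.8% in HuD libraries, and that of *Psen2* 55.6% to 58.9% and 52.1% to 65%.

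Of the 39 further pathway genes, 36 were tested in total and polysomal RNA and 25 in 3′ end counts, and none passed an adjusted edgeR p of 0.05 in any comparison. In TE, 25 of 36 lay above 0 with a median of 0.04, and 7192 of all 14906 genes lay above 0. The smallest p belonged to *Cst3*, the protease inhibitor cystatin C (log2 change 0.36, SE 0.14), *Tspan5* (-1.0, SE 0.63) and *Tspan33* (0.23, SE 0.17). The last 2 are tetraspanins that carry Adam10, and *Tspan5* had only 11 to 26 counts per library. In polysomal RNA the smallest p belonged to *Lrp1*, a receptor that binds App (0.22, SE 0.10), *Tspan33* (0.24, SE 0.12) and *Cst3* (0.20, SE 0.10). In total RNA 26 of 36 lay below 0 with a median of -0.04, and 7649 of all 14906 genes lay below 0. The smallest p belonged to *Adam9* at -0.21 (SE 0.10), the cargo receptor *Tmed10* at -0.14 (SE 0.09) and *Cst3* at -0.16 (SE 0.10). TE is taken from the same total RNA, so its count above 0 and the count below 0 here are not separate results.

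In control cells, the log2 difference of polysomal minus total RNA was -0.44 (SE 0.16) for *Tspan17*, 0.21 (SE 0.09) for the reticulon *Rtn3* and 0.27 (SE 0.12) for *Rtn4*. In 3′ end counts, the adaptor *Apba1* stood at 0.41 (SE 0.17), *Itm2b*, an inhibitor of App cutting, at -0.35 (SE 0.18) and *Lrp1* at 0.45 (SE 0.25). With the block no pathway gene passed, the nearest being *Apba1* at 0.42 (SE 0.11, edgeR adjusted p = 0.0613).

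The pattern of *App* over the 8 RNA-Seq and POL-Seq libraries was compared with that of 9702 genes of at least 10 CPM by Pearson's r of log2 CPM. The most alike were *Atp6v1a* (0.984), *Capn5* (0.968), *Prepl* (0.964), *Atp6v0a1* (0.963) and *Pgm1* (0.957). Of the members, *Aplp2* was closest with 0.949, which 7 genes exceeded, then *Adam10* with 0.888, while *Psenen* (-0.70) and *Aph1a* (-0.70) ran opposite to *App*. The 8 points share fractions and library numbers, so these values are a description of the libraries only.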

How the data were processed

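Members and pathway lists were chosen with earlier results of these data known. The authors deposited raw counts per gene for RNA-Seq and POL-Seq, and for 3′ end mRNA-Seq counts of reads within 10 bases of annotated transcript ends (GRCm38.p4, STAR 2.5.3a, Gencode M6 by the study's methods). For CRAC (TopHat2 2.0.14) the authors deposited, per window and pooled over replicates, read coverage as a signal, deletion counts, an unadjusted p-value that joins these by Fisher's method, and a score against their weight matrix, after locations with control reads were penalised. The depth of the CRAC libraries is unknown.

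Here, 3′ ends within 20 bases were merged at their highest count, since a read near several ends is counted at each. edgeR 4.0.16 (R 4.3.3; TMM, filterByExpr, quasi-likelihood tests, Benjamini-Hochberg over all genes, threshold 0.05) was fitted without a block, as the study names none. One fit to all 8 RNA-Seq and POL-Seq libraries gave TE as its interaction term, 3′ end choice was tested with diffSpliceDGE and Simes' method, and shares of the distal end with an exact permutation test over libraries. CPM are TMM-normalised. The fits were tested on simulated counts whose changes were larger than those of the members, which does not measure their power for smaller changes. CRAC windows were placed by their letters in Gencode M21 transcripts of the same build. The listed start was 1 base higher on the minus and 2 bases lower on the plus strand. The windows have no replicates and no test of their own.

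Deviations from the group means of same-numbered 3′ end libraries correlated at 0.423, 0.693 and 0.546 across 9621 genes, above 0.1 in every pair, and the pairing comes from the replicate numbers in the labels. No replicate pair agreed within sampling noise.

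Named were all 9 members, *Elavl4*, the pathway genes past the threshold or otherwise the 3 of smallest p per comparison, and the 5 genes most like *App*. CRAC pathway windows were named after their values were seen. Alternatives were DESeq2 1.42.0, its size factors, no filter, the replicate block, unadjusted p, other merging of ends, a stricter CRAC p and each library left out.

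Without knowledge of the strand setting used in counting, reads of overlapping antisense exons cannot be told apart. Such exons cover 15.4% of *Bace1* (*Rnf214*), 12.9% of *Aph1a* (*Car14*), 9.33% of *Psenen* (*U2af1l4*) and 4.91% of *Ncstn* (*Copa*).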

Additional observations from a re-analysis of the deposited data

How the results depend on the processing

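The number of members past the threshold moved in few settings. In 3′ end abundance it was 0 without and 1 with the replicate block, and 1 with the block and pair 2 left out, with DESeq2 size factors or with no filter. These combined settings were chosen after seeing the data. With an unadjusted p it was 1 in polysomal RNA and 1 in polysomal against total RNA of control cells. At the adjusted threshold, leaving out single libraries gave 0 to 4 in the latter. In RNA-Seq and POL-Seq, deviations of same-numbered libraries correlated at 0.255 to 0.541. The labels number these libraries as well, but with only 2 numbers they were not taken as pairs in the main fit. There the replicate block changed no call of a member (adjusted p of *Psen2* in polysomal RNA 0.519). Leaving out POL control replicate 1 raised the number of all genes called from 0 to 372 in polysomal RNA, with no member among them.

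The change in TE of *App* was -0.00094 with DESeq2 size factors and -0.0011 with DESeq2. In *Ncstn* the 3′ end difference was 0.16 with the block and pair 3 left out. *App* kept 1 of 2 windows at a CRAC p under 0.05.

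Leaving out single libraries also turned the sign of values near 0, and no value that turned sign was past the threshold. In TE, log2 changes ranged from -0.16 to 0.17 for *App*, -0.032 to 0.17 for *Aplp1*, -0.22 to 0.093 for *Aplp2*, -0.076 to 0.035 for *Bace1*, -0.058 to 0.22 for *Adam10* and -0.10 to 0.27 for *Psenen*. In polysomal RNA they ranged from -0.16 to 0.15 for *App*, -0.058 to 0.13 for *Aplp1*, -0.26 to 0.064 for *Aplp2*, -0.049 to 0.049 for *Bace1*, -0.11 to 0.17 for *Adam10*, -0.15 to 0.22 for *Psenen* and -0.10 to 0.16 for *Aph1a*. In total RNA they ranged from -0.17 to 0.15 for *App*, -0.13 to 0.062 for *Aplp1*, -0.15 to 0.093 for *Aplp2*, -0.034 to 0.077 for *Bace1*, -0.13 to 0.042 for *Adam10* and -0.041 to 0.022 for *Ncstn*. In control cells, polysomal against total RNA, they ranged from -0.27 to 0.056 for *Psen2*, -0.32 to 0.050 for *Psenen* and -0.092 to 0.11 for *Ncstn*. In 3′ end counts they ranged from -0.22 to 0.026 for *Adam10*, -0.0047 to 0.15 for *Psenen* and -0.88 to 0.28 for *Ncstn*, and the difference in distal share of *Psen2* from -4.09 to 2.35 percentage points. The cause of these shifts was not tested. The 3′ end values of *Ncstn* rest on 5 to 39 counts per library.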
